A study of Mus musculus with 12 samples.

Results

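The response of mouse cells to medium from adipocytes carrying a microRNA overexpression lentivirus was compared with the response to medium from adipocytes carrying an empty vector. The comparison took the 3 OE_CM and 3 VEC_CM libraries out of 12 in the series, and every gene kept by a filter on low counts, 14400 of 24619. The cells are labelled as primary mouse cardiac fibroblasts, grown in DMEM with 10% serum and 1% antibiotic, starved for 12 h and given the conditioned medium for 24 h. VEC_CM is the medium of vector adipocytes and OE_CM that of adipocytes with hsa-miR-548ay overexpression. The treatment labels of OE_CM replicates 2 and 3 carry other microRNA numbers that run on with the replicate, so the groups were taken from the sample titles. Both groups lack added TGF-beta1, which the other 6 libraries received with vector medium (TGF_VEC_CM) or with inhibition medium (TGF_KD_CM). No source used here gives the species of the adipocytes or the level of the microRNA in them. Nor does any say that libraries of a group came from separate cultures, so the p-values reflect library-to-library variation that could be purely technical.

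The libraries held 33379207 to 37226153 counts each, and the floor of 3 counts stood at no more than 0.0939 CPM, the count relative to the scaled library total in the usual unit. Mitochondrial messenger RNA took 2.11% to 2.14% of counts in OE_CM and 2.23% to 2.29% in VEC_CM. In a principal component analysis of the 6 libraries the first component, with 63.53% of the variance, separated the groups. Along the second, which held 10.28%, the OE_CM libraries spread out, with replicate 1 at 28.04 and the other two at -12.85 and -13.92. The 273 genes followed through every alternative fit, which include those described below as having risen or fallen, kept their direction and an adjusted p under 0.05 without that library. Most were picked for size or low p in these same libraries. Of all 7778 genes called with every library, 7004 were still called in the same direction.

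The label was checked against 13 fibroblast markers found in the table. Col1a1, Col1a2, Vim, Fbln2, Gsn and Ddr2 were abundant, from 419 to 4427 CPM by group mean, whereas Dcn and Lum, which encode proteoglycans typical of tissue fibroblasts, were at 0.179 CPM or less in every library. Postn and Mmp2 did not exceed 1.94 CPM. Tbx20 and Tbx5, factors of the heart lineage, did not exceed 0.0313 CPM, and Gata4, another, had means of 2.38 CPM in VEC_CM and 1.73 CPM in OE_CM, values looked up after the data had been seen. Tbx18, an epicardial factor, had means of 11.6 and 14.3 CPM, and Msln, of mesothelium, 60.9 and 48.3 CPM. The other 9 of 11 mesothelial and epicardial markers stayed under 1 CPM in all 6 libraries, with Wt1 and Upk3b at 0. Among markers of other cells, 10 of 11 endothelial, 8 of 12 smooth muscle and pericyte and 6 of 14 leukocyte markers stayed under 1 CPM in all 6 libraries. Acta2 and Tagln, of the smooth muscle list, did not exceed 0.739 and 0.191 CPM in any library. That list summed to 735 to 754 CPM in VEC_CM and 1063 to 1072 CPM in OE_CM, mostly from Cspg4 (means 565 and 876 CPM). Of its 6 members tested, 2 were higher and 1 lower. The summed level of the leukocyte markers was 51.01 to 53.7 CPM in VEC_CM and 24.5 to 42.6 CPM in OE_CM. Of 12 tested, 4 were lower in OE_CM and 0 higher (33.3% called, against 54.0% of all genes called and 25.7% lower). Ptprc, the pan-leukocyte phosphatase, was at 0.875 CPM in OE_CM replicate 1 and at 0.179 and 0.219 CPM in replicates 2 and 3, against 0.766 to 0.929 CPM in VEC_CM. The part of these cells in the results was not tested. In bulk RNA, fewer cells of a type and less RNA per cell cannot be told apart. Adipoq and Lep, which define fat cells, were at 0.735 CPM or less, whereas other genes of the adipocyte list were abundant. The lipid droplet gene Plin4 had means of 702.9 and 700.5 CPM, Pparg 124.0 and 124.7 CPM and the fatty acid carrier Fabp4 260.5 and 85.7 CPM in VEC_CM and OE_CM. Cidec, of lipid droplets, rose from 7.92 to 13.2 CPM. Cardiomyocyte markers summed to 72.4 to 77.8 CPM in VEC_CM and 164.8 to 168.9 CPM in OE_CM, nearly all from Tnnt2, with Actc1 and Myl2 at 0 in every library.

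Fibroblasts sit between signals and matrix. They read growth factors, cytokines and mechanical load through receptors, integrins and ion channels, relay them to transcription factors, and answer with secreted matrix, proteases and growth factors of their own. Conditioned medium carries everything the donor cells released, including proteins, lipids, metabolites and vesicles, and has lost what they consumed.

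Of the 14400 genes, 54.0% passed an adjusted p of 0.05 in edgeR's quasi-likelihood test, 28.4% higher and 25.7% lower in OE_CM. At least 2-fold changes were fewer, 7.35% of genes, with 2.44% higher and 4.92% lower. Of all calls 52.5% were higher, a split that fell to 35.6% with upper-quartile scaling and to 39.8% with limma on log2(FPKM + 1). The 3 libraries of each group did not overlap in 58.2% of genes. These shares are the background against which each gene list below is read. A count near them is not read as a result about the members of its list. Among genes with a mean below 1 CPM, 346 were at least 2-fold lower and 152 higher, whereas from 64 CPM upward 25 were lower and 37 higher. For genes that reached 5 CPM in the higher group, the share changed at least 2-fold was 3.43% of 10248.

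**Figure D1:**
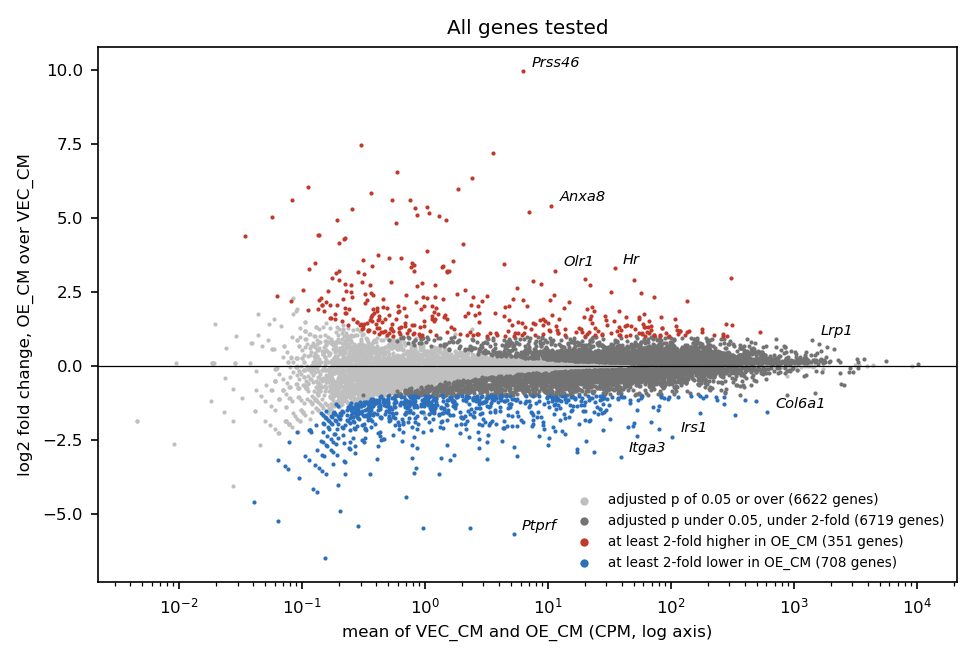
Log2 fold change of OE_CM over VEC_CM (vertical axis) against the mean level of both groups in CPM (horizontal log axis) for the 14400 genes tested, 1 point a gene. Red points (351) were at least 2-fold higher and blue points (708) at least 2-fold lower at an adjusted p under 0.05, and the blue excess lies at low levels.

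The 5 functional classes differed in how many members changed at least 2-fold. Secreted proteins had the highest share, with 38 of 321 tested members higher and 36 lower (23.1%, against 7.35% of all genes). Receptors had 20 higher and 27 lower of 300 (15.7%), adhesion genes 13 and 22 of 232 (15.1%), transporters 13 and 32 of 395 (11.4%), and transcription factors 20 and 23 of 702 (6.13%). Restricted to members that reached 5 CPM, the shares were 22.8%, 13.1%, 8.16%, 4.49% and 4.80% in the same order, against 3.43% of all such genes. The classes differ in their levels and lists overlap, and no test compared them.

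**Figure D2:**
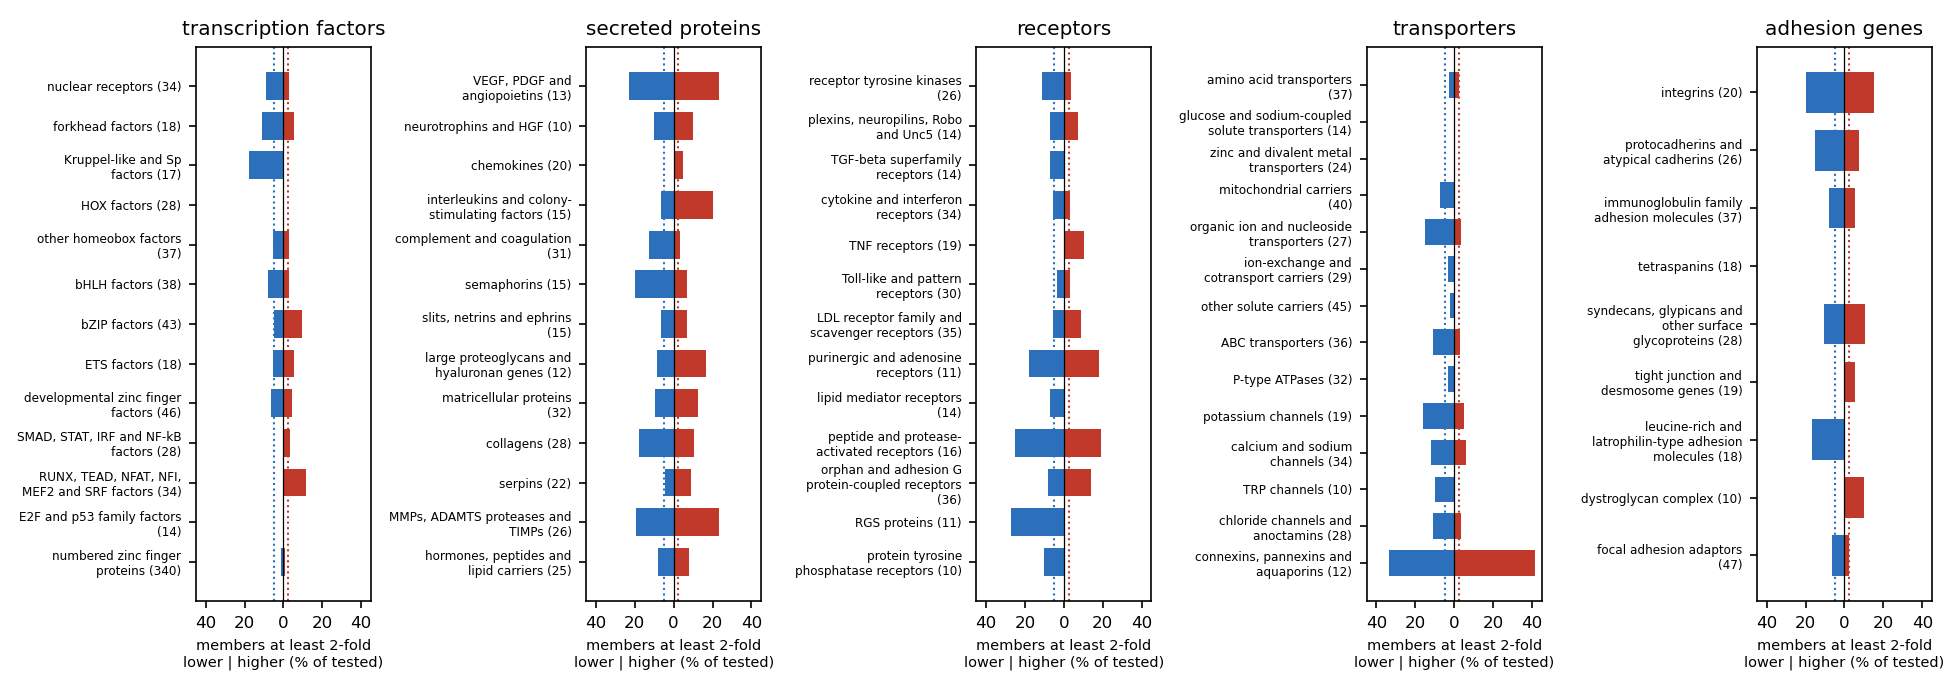
Share of tested members at least 2-fold higher (red, to the right) or lower (blue, to the left) in OE_CM for each list with 10 or more tested members, in percent, with the number tested in brackets. Dotted lines mark the shares over all genes, 2.44% higher and 4.92% lower. Connexins, pannexins and aquaporins have the longest bars, and HOX factors and tetraspanins have none.

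The widest change in relative level was that of genes all but absent with vector medium. Prss46, a trypsin-like serine protease gene of a cluster on chromosome 9 (110844506 to 110856522 in GRCm38, NCBI gene 74306), had 0, 1 and 0 counts in the VEC_CM libraries and 458, 408 and 402 in OE_CM. The ratio was 1380, with an exact 95% interval of 248 to 54600 that covers counting error only. Its neighbours on one side moved with it. Prss50 (110857964 to 110864629) had 3, 1 and 2 counts in VEC_CM and 109, 108 and 147 in OE_CM, and Tmie, a gene of the inner ear's transduction channel (110865687 to 110880073), rose from 0.30 ± 0.0723 to 2.76 ± 0.0654 CPM (SD, n = 3). The next gene, Als2cl, went only from 22.1 to 25.5 CPM in VEC_CM to 28.6 to 29.9 in OE_CM, and on the other side Prss45 and Prss43 were at 0.0598 CPM or less in all 6 libraries. The sizes differed, with a ratio of 66.1 for Prss50 (exact 95% interval 30.1 to 181, counting error only) and a log2 fold change of 3.18 for Tmie. Beyond them Prss44 did not pass the test, and Prss42, Pth1r and Nbeal2 had log2 fold changes of 0.386, 1.15 and 0.326 (edgeR adjusted p = 2.13e-05, 0.0141 and 0.000365). Mab21l4, on chromosome 1 (93151354 to 93160956), was another gene near 0 in VEC_CM, with 2 counts in each VEC_CM library and 155 to 169 in OE_CM, as was Gm28231, on chromosome 9 (88259887 to 88263035), with 0, 4 and 1 counts against 272, 231 and 221. All genes of this paragraph were picked out after their values had been seen.

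Among genes that reached 20 CPM the largest rise was that of Anxa8, a calcium-dependent membrane-binding annexin (chromosome 14, 34085979 to 34100571, NCBI gene 11752). It stood at 0.436, 0.519 and 0.493 CPM in VEC_CM and at 21.0, 19.8 and 21.8 CPM in OE_CM (log2 fold change 5.42 ± 0.16 SE; edgeR adjusted p = 8.43e-40). Also in the 12 largest rises were Acta1, skeletal muscle actin, at 5.71 CPM against 38.3 CPM, Ccbe1, a secreted protein needed for lymphatic growth, at 24.1 against 122 CPM, and the small heat shock protein Hspb7 at 5.46 against 24.3 CPM. The 12 largest falls held Irs1, the docking protein of insulin and IGF receptors, which fell by 2.39 ± 0.037 on the log2 scale, the kinase-like Trib2 (-2.19), the transcription cofactor Lbh (-2.08) and the hydrolase Cmbl (-2.29). In all of these genes, chosen for their size, the 3 libraries of one group lay wholly outside the range of the other, as in 58.2% of all genes.

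Promoters of these 24 genes were searched because they hold the extremes of the response. The RefSeq promoter table (GRCm38.p6) gave a single start for 14, and for 9 of those the 250 bases before it lay outside the gene's own span. The motifs searched, each on both strands, were the AP-1 element TGACTCA, the palindromic E-box CACGTG, the TEAD element GGAATG, the forkhead element GTAAACA and the nuclear receptor half-site AGGTCA. At least 1 match was present in 6 of the 9, and 3 promoters are shown, for the largest rise, for the actin gene and for Irs1. They run 5′ to 3′ on the gene's strand and end at the base before the start given by RefSeq, with motif matches in capitals. Bases just after that start were sought near the front of GENCODE transcripts. They were found in 1 of 2 for Anxa8, 0 of 2 for Acta1 and 0 of 1 for Irs1. The exact starts of Acta1 and Irs1, and motif distances from them, are therefore uncertain. The windows are chr14:34085729-34085978 on the plus strand, chr8:123894776-123895025 on the minus strand and chr1:82291440-82291689 on the minus strand.
Anxa8: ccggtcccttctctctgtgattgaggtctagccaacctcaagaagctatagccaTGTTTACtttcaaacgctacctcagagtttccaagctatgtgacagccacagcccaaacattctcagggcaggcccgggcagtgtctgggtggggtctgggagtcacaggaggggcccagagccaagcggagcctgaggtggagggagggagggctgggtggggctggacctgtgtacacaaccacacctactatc
Acta1: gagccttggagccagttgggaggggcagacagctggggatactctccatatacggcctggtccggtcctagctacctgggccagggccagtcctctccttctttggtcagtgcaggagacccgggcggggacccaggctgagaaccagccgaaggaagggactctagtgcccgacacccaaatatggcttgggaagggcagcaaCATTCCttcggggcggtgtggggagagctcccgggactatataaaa
Irs1: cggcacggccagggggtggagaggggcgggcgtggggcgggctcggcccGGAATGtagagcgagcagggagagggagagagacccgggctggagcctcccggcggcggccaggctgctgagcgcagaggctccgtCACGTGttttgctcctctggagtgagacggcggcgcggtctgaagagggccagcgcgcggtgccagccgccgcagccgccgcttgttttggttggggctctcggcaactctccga
The Anxa8 match is a forkhead element on the opposite strand, the Acta1 match a TEAD element on the opposite strand, and Irs1 holds a TEAD element and an E-box. Spsb1, Col7a1 and Fstl3, which rose, each had 1 half-site, and Dpt, Hspb7 and Lbh had none of the 5 motifs in this window. Over the 246 genes with a promoter that were at least 2-fold higher, 8.13% held the AP-1 element, against 6.96% of 503 at least 2-fold lower and 4.58% of the 11157 tested genes in the table. For the forkhead element the shares were 5.69%, 3.98% and 2.77%, for the TEAD element 16.7%, 16.1% and 13.2%, for the half-site 16.7%, 17.5% and 13.7%, and for the E-box 6.10%, 6.76% and 9.41%. A match is a description of letters and not evidence of binding.

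Transcription factor families moved in different directions. Of 702 tested factors 159 were higher and 190 lower, or 49.7% called against 54.0% of all genes. With upper-quartile scaling 105 were higher and 261 lower, and with limma on log2(FPKM + 1) 96 and 208. Tcf7, which partners beta-catenin in Wnt signalling (chromosome 11, 52246527 to 52283383, NCBI gene 21414), had the largest rise, with 1.88, 1.80 and 0.985 CPM in VEC_CM and 8.75, 9.81 and 10.4 CPM in OE_CM (log2 2.63 ± 0.16 SE; edgeR adjusted p = 2.28e-22). Nfatc2, a factor that enters the nucleus after calcineurin acts on it, stood at 2.01, 2.46 and 2.05 CPM and at 9.09, 10.8 and 11.1 CPM (log2 2.24 ± 0.14). Its relative Nfatc1 rose from 36.8 to 79.6 CPM, and Runx1, known from blood and mesenchymal development, from 24.1 to 61.2 CPM. Both belong to a list of RUNX, TEAD, NFAT, NFI, MEF2 and SRF factors. Of its 34 members 18 were higher and 9 lower (52.9% and 26.5%, against 28.4% and 25.7% of all genes). At least 2-fold, 4 were higher and 0 lower.

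The bZIP factors held 3 membrane-anchored members that rose together, all of the CREB3 type that is cut free in the Golgi. Creb3l3 had 1.58, 2.27 and 1.56 CPM in VEC_CM and 7.56, 6.997 and 6.98 CPM in OE_CM, Creb3l1, an activator of collagen genes in bone, rose from 57.1 to 124 CPM and Creb3l2 from 63.9 to 128 CPM. In the same list of 43, Cebpd, an adipocyte and acute phase factor, fell from 8.35 to 2.83 CPM, and Dbp, a clock output factor, from 19.996 to 10.3 CPM. The list as a whole was even, with 13 higher and 14 lower (62.8% called, against 54.0% of all genes).

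Forkhead and Krüppel-like factors split. Foxp2 (chromosome 6, 14901349 to 15441977, NCBI gene 114142) had 5.799, 5.35 and 5.34 CPM in VEC_CM and 1.16, 1.05 and 1.06 CPM in OE_CM (log2 -2.33 ± 0.20), while its relative Foxp1 rose from 58.3 to 107 CPM. Foxs1 also rose, from 16.8 to 43.9 CPM. Klf10, an early TGF-beta responsive repressor, rose by 0.76 ± 0.031 on the log2 scale, whereas Klf3 and Klf15, repressor and metabolic regulator, fell by 1.15 ± 0.073 and 1.11 ± 0.093. Of 17 Krüppel-like and Sp factors 4 were higher and 7 lower (64.7% called, against 54.0% of all genes).

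Nuclear receptors were more often lower, 17 of 34 against 8 higher. Thra, the alpha receptor of thyroid hormone, was at 125, 130 and 139 CPM in VEC_CM and 63.2, 63.96 and 63.0 CPM in OE_CM. Rxra, the shared partner of many receptors, and the clock repressor Nr1d1 rose, by 0.40 ± 0.034 and 0.52 ± 0.05 on the log2 scale. HOX genes, which keep a record of body position, had 19 of 28 members lower (67.9%, against 25.7% of all genes), 1 higher (Hoxa4) and 0 changed 2-fold. Their median log2 fold change was -0.333, against -0.00812 for all genes. Hoxa3 fell by 0.78 ± 0.061 and Hoxa10 by 0.46 ± 0.046.

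Single factors in other families also moved, some of them by more than 2-fold. Ikzf4, a zinc finger factor known from lymphocytes, fell from 9.93 to 2.66 CPM, Zfp467 from 42.9 to 14.5 CPM, Hivep3 from 33.9 to 14.5 CPM and Etv1, an ETS factor that responds to ERK signalling, from 45.2 to 17.9 CPM. Ets2 of the same family rose from 71.5 to 127 CPM. Nfkb2 and Relb, the subunits of the noncanonical NF-kB pathway, rose by 0.56 ± 0.036 and 0.92 ± 0.096, while Stat3 and Smad3 fell by 0.44 ± 0.03 and 0.66 ± 0.053. The numbered zinc finger proteins, the largest list with 340 tested, had 54 higher and 66 lower (35.3% called, against 54.0% of all genes). At least 2-fold changes were seen in 2.06%, against 7.35% of all genes. With upper-quartile scaling these counts were 23 and 111, and with limma on log2(FPKM + 1) 24 and 82 of 270 tested.

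**Figure D3:**
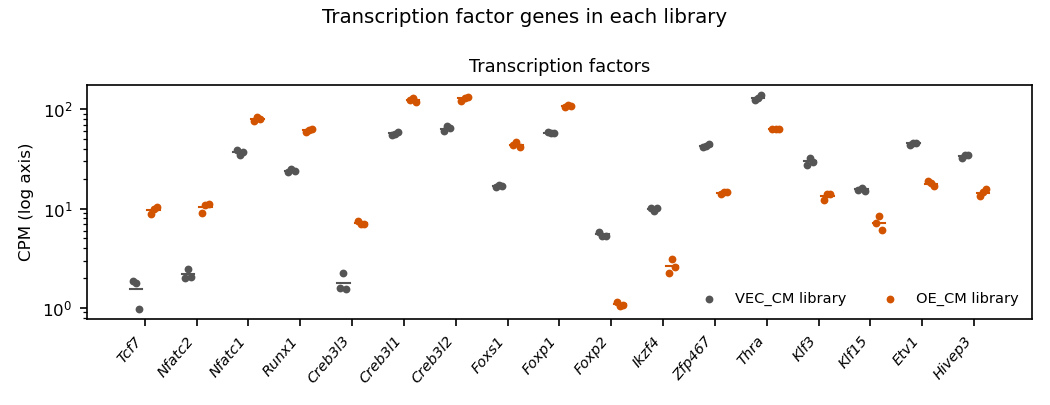
CPM (log axis) of 17 transcription factor genes in each library, grey for VEC_CM and orange for OE_CM, with a bar at each group mean. Tcf7 rises from a mean of 1.56 to 9.64 CPM and Foxp2 falls from 5.50 to 1.09 CPM. The groups do not overlap for any of the genes shown, which were chosen for size or low p. Over all genes tested, 58.2% do not overlap.

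Growth factor genes, the first group of secreted proteins, moved both ways within families. Fgf2, which acts on many mesenchymal cells, was at 10.2, 11.6 and 10.0 CPM in VEC_CM and at 32.3, 34.2 and 35.7 CPM in OE_CM (log2 1.68 ± 0.072), whereas Fgf7, a signal to epithelium, fell from 141 to 78.1 CPM. Pdgfa and Pdgfc, ligands of the PDGF alpha receptor, rose from 73.5 to 156 CPM and from 3.69 to 17.3 CPM, and the gene of that receptor, Pdgfra, was at 184, 203 and 194 CPM against 96.3, 98.3 and 93.4 CPM. Pdgfrb rose by 0.44 ± 0.034. Angpt1, the agonist of the endothelial Tie2 receptor, fell from 125, 138 and 131 CPM to 28.0, 29.1 and 31.6 CPM (log2 -2.15 ± 0.046), and the lymphatic factor Vegfd from 36.9 to 18.02 CPM. Of 13 VEGF, PDGF and angiopoietin genes 4 were higher and 8 lower (92.3% called, against 54.0% of all genes).

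Ligands of other pathways followed. Bdnf, a neurotrophin, rose from 6.45 to 10.99 CPM, and the EGF receptor ligands Hbegf and Ereg from 6.41 to 14.5 CPM and from 5.17 to 8.53 CPM. Csf1, the growth factor of macrophages, had the third largest gain in CPM of all genes, from 1460 to 2292 CPM. Fstl3, which binds and blocks activins, stood at 54.1, 45.9 and 47.9 CPM in VEC_CM and 230, 220 and 220 CPM in OE_CM. Wnt5b and Bmp1, the second of which is a procollagen protease, rose by 0.66 ± 0.079 and 0.49 ± 0.04. Kitl, the ligand of the Kit receptor, fell by 0.50 ± 0.043.

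Guidance cues moved both ways. Sema3a, which repels axons and endothelial cells, was at 102, 109 and 102 CPM in VEC_CM and 41.6, 38.7 and 39.0 CPM in OE_CM, and Sema3f and Sema3b fell by 0.97 ± 0.04 and 1.34 ± 0.076. Sema3c and the membrane-anchored Sema7a rose, from 127 to 217 CPM and from 1.89 to 7.72 CPM. In the list of 15 semaphorins 3 were higher and 6 lower (60.0% called, against 54.0% of all genes). The 15 slits, netrins and ephrins had the same counts, a share near that of all genes. Among ephrins, Efna1 and Efna2 were higher by 0.94 ± 0.081 and 1.23 ± 0.11, and Efna5 and Efnb2 lower by 0.61 ± 0.055 and 1.27 ± 0.11. All 4 tested Eph receptors, Epha2, Epha8, Ephb3 and Ephb4, were lower (log2 -0.25, -0.84, -0.72 and -0.26), against 25.7% of all genes.

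Structural matrix genes diverged within families. Lamb3, the beta chain of epithelial laminin-332 (chromosome 1, 193294353 to 193343878, NCBI gene 16780), was at 0.708, 0.273 and 0.137 CPM in VEC_CM and 12.4, 14.4 and 14.5 CPM in OE_CM (log2 5.19 ± 0.24; edgeR adjusted p = 2.14e-12). Per length, in the deposited FPKM values, Lamb3 reached 3.06 ± 0.269 in OE_CM, below Lamb1 at 73.8 ± 0.635 and Lamb2 at 12.3 ± 0.268, the latter 2 having changed in opposite directions (log2 0.60 and -0.86). Col7a1, the collagen of anchoring fibrils that bind laminin-332, rose from 17.6 to 97.4 CPM, while Col6a1, of the beaded microfibrils, fell from 841, 929 and 958 CPM to 297, 315 and 311 CPM. Of 28 collagens 11 were higher and 10 lower (75.0% called, against 54.0% of all genes), a near balance that tips to more lower under upper-quartile scaling.

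Proteoglycans and other matrix glycoproteins moved both ways. Prelp was at 38.9, 43.98 and 43.7 CPM in VEC_CM and 5.31, 7.12 and 4.38 CPM in OE_CM, Tnxb, the tenascin whose loss gives lax connective tissue, fell from 45.6 to 10.1 CPM, Sparcl1 from 28.4 to 7.33 CPM and Efemp1, a fibulin, from 555 to 251 CPM. Podnl1 and Bgn, leucine-rich proteoglycans like Prelp, rose from 24.8 to 50.9 CPM and from 1047 to 1464 CPM. Matrix proteases and inhibitors had 6 of 26 members at least 2-fold higher and 5 lower (42.3%, against 7.35% of all genes). Of the 18 that reached 5 CPM, 3 were higher and 4 lower (38.9%, against 3.43% of all such genes). Adamts12 rose from 22.4 to 50.6 CPM.

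Genes of clotting, complement and IGF binding completed the class. Plat, a plasminogen activator, rose from 2.48 to 7.24 CPM. Complement and coagulation genes were 6 higher and 12 lower of 31 (58.1% called, against 54.0% of all genes). The classical pathway proteases C1s1 and C2 and the related C1rl were lower by 1.31 ± 0.07, 1.30 ± 0.085 and 1.54 ± 0.077. Igf1 fell from 10.9 to 3.70 CPM and its binding proteins Igfbp6 and Igfbp4 from 331 to 148 CPM and from 420 to 269.8 CPM, while Igfbp7 rose from 15.7 to 31.1 CPM. Spp1, osteopontin, had one of the 8 largest losses, from 1934 to 1033 CPM, and Lgals9, a galectin, fell by 1.61 ± 0.06.

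Receptor genes showed the largest single fall among genes with at least 5 CPM. Ptprf, the receptor phosphatase LAR of cell contacts (chromosome 4, 118208213 to 118291405, NCBI gene 19268), was at 10.5, 10.9 and 9.69 CPM in VEC_CM and 0.198, 0.299 and 0.0939 CPM in OE_CM, the last at the floor of 3 counts (log2 -5.68 ± 0.24; edgeR adjusted p = 6.94e-31). P2ry6, a receptor for UDP (chromosome 7, 100937630 to 100975498, NCBI gene 233571), rose from 1.12, 0.683 and 0.438 CPM to 7.90, 8.46 and 7.92 CPM. Other purinergic receptors went down, such as the ATP-gated channels P2rx1 and P2rx5 by 0.70 ± 0.072 and 0.89 ± 0.11. The list had 3 higher and 7 lower of 11 (27.3% and 63.6%, against 28.4% and 25.7% of all genes).

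Receptors for debris and microbial products divided. Olr1, the lectin-like receptor of oxidised lipoprotein, was at 2.10, 2.81 and 1.75 CPM against 19.8, 22.2 and 20.2 CPM, the engulfment receptor Megf10 at 28.9, 26.7 and 27.4 CPM against 94.8, 94.4 and 92.4 CPM, and Lrp1, a large endocytic receptor, had the largest gain of CPM of all genes, from 994 to 1839 CPM. Stab2, which takes up hyaluronan, fell from 7.21 to 1.24 CPM, the ferritin receptor Scara5 from 12.6 to 3.84 CPM and Mertk, which recognises dying cells through bridging ligands, from 5.31 to 1.34 CPM, while its relative Axl rose by 0.28 ± 0.037. Tlr2 rose from 40.5 to 126 CPM and Tlr4 fell from 42.0 to 21.7 CPM. Across 30 Toll-like and pattern receptors, of which 11 reached 5 CPM, 2 were higher and 9 lower. This list had 36.7% called, against 54.0% of all genes (28.4% higher and 25.7% lower). Leukocytes express many members of the list, and the part of the lower leukocyte marker sum of OE_CM in its counts was not tested.

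TNF receptors were 10 higher and 2 lower of 19 (52.6% higher and 10.5% lower, against 28.4% and 25.7% of all genes). Cd40, the co-stimulatory receptor, was at 70.4, 70.0 and 76.9 CPM in VEC_CM and 169, 161 and 161 CPM in OE_CM, Tnfrsf12a, the receptor of TWEAK, rose from 141 to 255 CPM, and Tnfrsf1a fell from 146 to 111 CPM. Cytokine receptors were 8 higher and 12 lower of 34 (58.8% called, against 54.0% of all genes). Among them were Il4ra, higher by 0.55 ± 0.037, and Osmr and Il1r1, lower by 0.40 ± 0.026 and 0.54 ± 0.043.

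Receptors of the Notch, hedgehog and Wnt pathways included pairs of genes that moved in opposite directions. Notch2 rose from 115 to 178 CPM while Notch1 fell from 51.9 to 27.6 CPM. The hedgehog co-receptors Cdon and Gas1, which help present the ligand to Patched, went from 33.1, 34.8 and 36.3 CPM to 84.9, 81.5 and 94.1 CPM and from 100.06, 116 and 113 CPM to 29.4, 30.5 and 27.7 CPM, respectively. Gli1, the pathway's own target, fell from 14.8 to 7.52 CPM. In the hedgehog list 2 of 13 genes were higher and 4 lower (46.2% called, against 54.0% of all genes). Lgr6 and Lgr4, receptors of R-spondin, rose by 1.02 ± 0.047 and 0.66 ± 0.052, and the Wnt receptor Fzd4 fell by 0.76 ± 0.065. Fgfr1 rose from 122 to 201 CPM, alongside its ligand gene Fgf2.

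Among G protein-coupled and guidance receptors, Mrgprf fell from 29.3, 31.9 and 30.04 CPM to 4.74, 4.49 and 3.66 CPM and Gpr146, linked to blood cholesterol, from 6.95 to 1.62 CPM. Adgre5, or CD97, fell from 119 to 56.5 CPM, and the incretin receptor Gipr from 17.3 to 6.96 CPM. Gpr35 rose from 17.8 to 37.3 CPM and F2r, the thrombin receptor, from 383 to 565 CPM. Plxnd1 and Unc5b, receptors of semaphorins and netrins, rose by 0.90 ± 0.029 and 0.70 ± 0.032. The TGF-beta co-receptor Tgfbr3 fell by 1.03 ± 0.039.

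**Figure D4:**
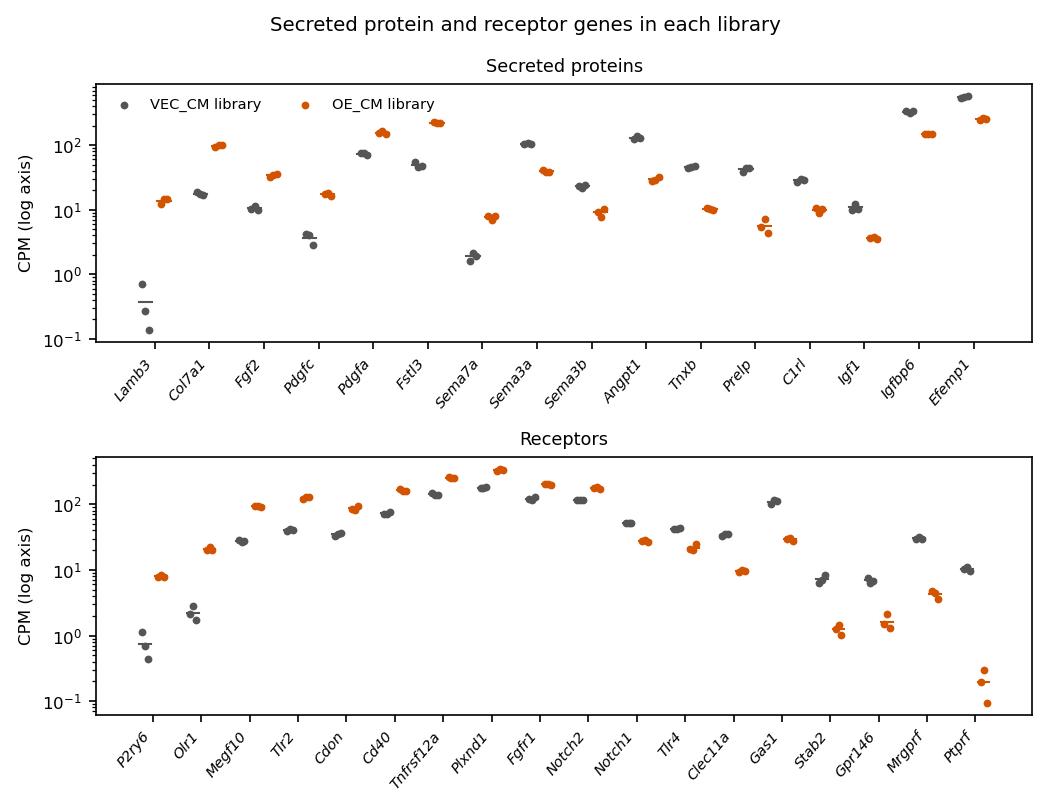
CPM (log axis) of 16 secreted protein genes (upper panel) and 18 receptor genes (lower panel) in each library, grey for VEC_CM and orange for OE_CM, with a bar at each group mean. Libraries of a group lie close together and the groups are separate in every gene shown, from the rise of Lamb3 to the fall of Ptprf. The genes were chosen for size or low p, and the groups are also separate in 58.2% of all genes tested.

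Among transport genes, Gja1, the main connexin of fibroblasts, rose from 108 to 201 CPM. The water channels Aqp5 and Aqp1 fell from 124, 128 and 137 CPM to 56.9, 62.1 and 60.7 CPM and from 359, 366 and 367 CPM to 177, 175 and 174 CPM. Of 12 connexins, pannexins and aquaporins, 5 were at least 2-fold higher and 4 lower (75.0%, against 7.35% of all genes). Only 5 members reached 5 CPM, of which 1 was higher and 2 lower.

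Amino acid and metal carriers were more often higher than lower, whereas glucose and sodium-coupled carriers had 2 higher and 5 lower of 14. Both folate carriers named rose, Slc46a1 from 4.37 to 12.9 CPM and Slc19a1 from 49.9 to 93.3 CPM, as did the nucleoside carrier Slc29a1, from 252 to 405 CPM, and the creatine carrier Slc6a8, from 149 to 252 CPM. Amino acid transporters were 15 higher and 6 lower of 37 (56.8% called). Slc1a4 and Slc6a6, carriers of neutral amino acids and taurine, rose by 0.75 ± 0.04 and 0.52 ± 0.023, and Slc38a4 fell from 109 to 56.1 CPM. Zinc and divalent metal transporters were 10 higher and 5 lower of 24 (62.5% called). The iron and manganese carriers Slc11a1, Slc11a2 and Slc39a14 rose from 149 to 282 CPM, from 120 to 196 CPM and from 115 to 205 CPM, and the zinc exporter Slc30a4 fell from 207 to 133 CPM. The glucose carrier Slc2a1 and the lactate carrier Slc16a1 rose by 0.61 ± 0.042 and 0.46 ± 0.03.

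Calcium and sodium channels and mitochondrial carriers had more members lower than higher. Among 40 mitochondrial carriers 11 were higher and 16 lower (67.5% called, against 54.0% of all genes). The iron carrier Slc25a37 was up by 0.52 ± 0.03 and the coenzyme A carrier Slc25a42 down from 20.9 to 10.1 CPM. Calcium and sodium channel genes were 5 higher and 15 lower of 34 (58.8% called, against 54.0% of all genes). Cacna2d2, an accessory calcium channel subunit, was higher, at 5.12, 5.79 and 5.99 CPM against 20.5, 22.7 and 21.8 CPM. ABC transporters were 8 higher and 13 lower of 36 (58.3% called). Abca1, the cholesterol exporter, fell from 9.502, 12.3 and 12.8 CPM to 3.98, 3.23 and 3.79 CPM, and Abca7 from 109 to 67.1 CPM. The drug efflux pumps Abcb1a and Abcb1b, close copies whose reads the counting could have split, rose from 9.46 to 29.7 CPM and from 283 to 404 CPM.

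Channels gated by force and ions also changed. Piezo1, a mechanosensitive cation channel, rose from 276 to 453 CPM, and Kcnk2, a stretch-sensitive potassium channel, fell from 7.60 to 3.38 CPM. Kcnn4, opened by calcium, rose by 0.71 ± 0.059, and the acid-sensing channel Asic1 fell by 0.70 ± 0.034. Clca2, a regulator of chloride channels, fell from 4.25, 5.93 and 6.24 CPM to 0.677, 1.02 and 1.06 CPM (log2 -2.58 ± 0.20).

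Among adhesion genes, integrin chains moved both ways. Itga5, the fibronectin receptor chain (chromosome 15, 103344286 to 103366791, NCBI gene 16402), was at 170, 171 and 177 CPM in VEC_CM and 449, 467 and 449.9 CPM in OE_CM. Itga3, which binds laminins including laminin-332, was at 64.1, 71.5 and 74.5 CPM in VEC_CM and 7.42, 8.88 and 8.73 CPM in OE_CM (log2 -3.07 ± 0.064). The other laminin-binding chain Itga6 fell from 30.4 to 16.8 CPM, while Itgav and Itgb5, which form a vitronectin receptor, rose from 188 to 318 CPM and from 217 to 333 CPM, and Itgb1, the shared beta chain, from 326 to 422 CPM. Itga6 and Itgb1 were looked up after the values had been seen. Per length, the alpha chains ordered as Itga5 (38.8 ± 0.915 FPKM), Itgav (26.99 ± 0.656), Itga3 (13.2 ± 0.98) and Itga6 (5.04 ± 0.313) in VEC_CM, and as Itga5 (96.9 ± 1.68), Itgav (43.2 ± 0.688), Itga6 (2.64 ± 0.248) and Itga3 (1.49 ± 0.143) in OE_CM. Of 20 integrin chains 7 were higher and 8 lower (75.0% called, against 54.0% of all genes). The leukocyte chains Itgal and Itgb7, each with a mean of at least 5 CPM in VEC_CM, fell by 1.23 ± 0.076 and 1.49 ± 0.063. Ptprc did not exceed 0.929 CPM in any library, and the part of leukocytes in these 2 falls was not tested.

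Surface glycoproteins and cell contacts followed different courses. Cd44, the hyaluronan receptor, was at 145, 141 and 150 CPM in VEC_CM and 304, 308 and 296 CPM in OE_CM, and the proteoglycans Cspg4 and Sdc3 rose from 565 to 876 CPM and from 379 to 523 CPM. Ly6a and Ly6c1, close copies with uncertain counts, fell from 84.6, 88.1 and 95.3 CPM to 17.7, 18 and 16.4 CPM and from 30.7 to 4.03 CPM. Cadherins were 0 higher and 7 lower of 9, and tetraspanins 1 higher and 12 lower of 18 (77.8% and 66.7% lower, against 25.7% of all genes). The tetraspanins Tspan17 and Cd151 were down by 0.92 ± 0.074 and 0.40 ± 0.034. The nectin-like receptors Pvr and Nectin1 rose from 45.7 to 82.4 CPM and from 46.3 to 80.4 CPM, and Nectin2 fell from 43.9 to 24.6 CPM. Islr, a leucine-rich surface protein of stromal cells, fell from 78.9 to 28.1 CPM.

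Focal adhesion adaptors, which couple integrins to actin, were 19 higher and 18 lower of 47 (78.7% called, against 54.0% of all genes). Upper-quartile scaling turns this balance to more lower. Parvb and Tns3 rose from 132 to 253 CPM and from 113 to 215 CPM, and Pdlim7 from 54.2 to 109 CPM, whereas Tns2 fell from 256, 262 and 266 CPM to 129, 130 and 128 CPM. In the dystroglycan complex 2 of 10 were higher and 6 lower (60.0% lower, against 25.7% of all genes), with Utrn and Dag1 down by 0.47 ± 0.03 and 0.27 ± 0.026.

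**Figure D5:**
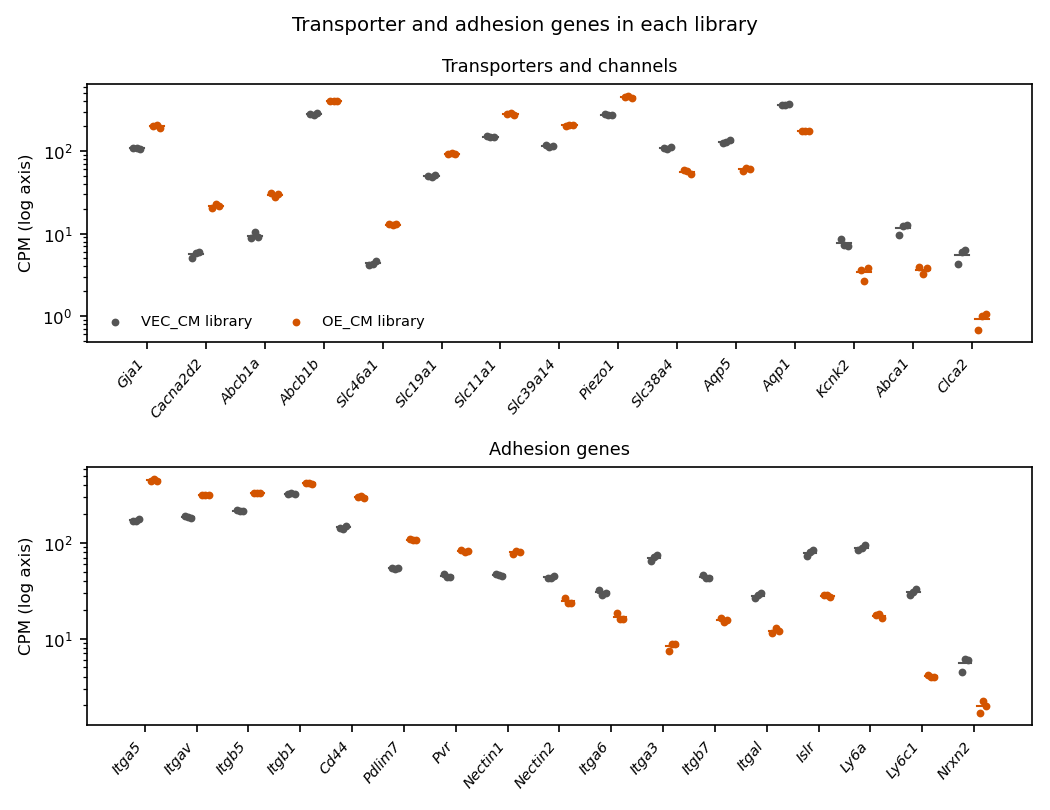
CPM (log axis) of 15 transporter and channel genes (upper panel) and 17 adhesion genes (lower panel) in each library, grey for VEC_CM and orange for OE_CM, with a bar at each group mean. Gja1 and Itga5 rise and Clca2 and Itga3 fall, with no overlap between groups in any gene shown. Most of the genes were chosen for size or low p, and 58.2% of all genes tested do not overlap.

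Further pathways showed the cytoskeleton and detoxifying enzymes moving. Arhgap22 and Arhgap42, which switch off small GTPases of actin dynamics, rose from 39.7 to 88.7 CPM and from 37.2 to 79.2 CPM, and Arhgap18 of the same kind fell by 1.15 ± 0.065. Myo1d rose from 72.2 to 163 CPM and Myo18a fell from 233.5 to 114 CPM. Aldehyde dehydrogenases and cytochromes P450 were 6 higher and 18 lower of 40. Aldh3a1 was at 33.7, 34.9 and 36.4 CPM in VEC_CM and 6.41, 4.81 and 6.67 CPM in OE_CM, and Cyp4b1 fell from 17.4 to 3.20 CPM. The sulfated glycan enzymes Ext1 and Chsy1 rose from 85.2 to 163 CPM and from 57.6 to 106 CPM, and heparanase, Hpse, fell from 36.8 to 19.5 CPM.

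To see whether these genes also responded when the microRNA was inhibited in the adipocytes, the values of TGF_KD_CM against TGF_VEC_CM, which share no library with OE_CM and VEC_CM but received TGF-beta1, were set beside them. That comparison called 43.3% of all genes. Of the 40 genes with the 4 largest rises and 4 largest falls of each class, 16 moved in the opposite direction under the inhibition medium, 13 in the same direction and 11 did not pass. The same split was not counted over all genes, so nothing particular to these 40 is read from it. The difference between the 2 responses passed for all 40, against 52.5% of all genes, but the 40 were chosen for their size in 1 of the 2 and nothing is read from that count.

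Lamb3 and Sema7a, which rose with overexpression medium, fell by 2.30 and 1.43 on the log2 scale with inhibition medium. Ly6a and Angpt1, which fell, rose by 1.54 and 0.81. By contrast Dpt, Tlr2 and Slc11a1 were higher in both comparisons, at 1.72, 0.81 and 0.78 with inhibition medium, and Itga3 and Id2 lower in both, at -0.85 and -1.13. Anxa8 had a log2 fold change of 0.52 with inhibition medium against 5.42 with overexpression medium, and P2ry6, Olr1, Tcf7 and Megf10 stayed between -0.06 and 0.01 there. The difference of the 2 responses passed for each of these genes, least firmly for Id2 and Slc11a1 (edgeR adjusted p = 0.0016 and 0.0015). Il1r1 (log2 -0.54 and -0.53), Gli1 (-0.97 and -0.87) and Relb (0.92 and 0.75) had changes whose difference did not pass (edgeR adjusted p = 0.84, 0.49 and 0.32).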

How the data were processed

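RNA-seq was made from cells labelled as cardiac fibroblasts, from 1.3 µg of RNA a library, using a SMARTER kit for mRNA, per the labels' protocols. The deposited table of the authors gives raw counts per gene and library, and a second deposited table gives FPKM values, counts scaled by gene length and depth. The genome was GRCm38 (mm10) per the submitters' processing notes, while the aligner, counter and use of strand are each not given in the sources used here. Groups came from sample titles, and 0 columns of other series were left aside.

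The counts were tested here with edgeR 4.0.16 (R 4.3.3): filterByExpr, TMM factors, all 12 libraries in 1 quasi-likelihood fit, 2-sided, with Benjamini-Hochberg adjustment over 14400 genes and a threshold of 0.05. CPM are counts scaled to the TMM-adjusted library total. The fit's common biological coefficient of variation was 0.0341, with 8 residual degrees of freedom. The script was tested on simulated data. Exact intervals of count ratios cover counting error only. FPKM values were used for levels between genes and, with limma 3.58.1, as an alternative. Python 3.11.15 handled lists and promoters.

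Genes were named by rule: in each of 5 classes the 4 largest rises and 4 largest falls with at least 5 CPM and no overlap between groups, in each list up to 3 members of lowest p in each direction with at least 5 CPM and every member of a list with 5 or fewer tested, over all genes the 12 largest rises and falls with at least 20 CPM and the 8 largest gains and losses of CPM, and all cell type markers. Exceptions are stated where they stand. The comparison, the lists and the alternatives were chosen with earlier results of these data known. Alternatives were other scalings (DESeq2 1.42.0 factors, upper quartile), other filters, the DESeq2 Wald test, the 6 libraries alone, limma on FPKM, a replicate block and leaving out each library. Some genes the rule names are not reported here.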

Additional observations from a re-analysis of the deposited data

How the results depend on the processing

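All 273 followed genes kept their direction and an adjusted p under 0.05 in every alternative in which they were tested, 264 of them in the limma fits. Most were picked for size or low p in these same libraries, so this outcome was close to fixed in advance. Of all main calls, 6493 of 7778 were kept with upper-quartile factors and 5729 of 6908 tested with limma on log2(FPKM + 1). Counts of calls moved more. With limma on log2(FPKM + 1) and log2(FPKM + 0.1), on 11109 genes, 2686 and 2690 genes were higher, 4068 and 4093 lower, 84 and 139 at least 2-fold higher and 126 and 317 at least 2-fold lower. Higher transcription factors numbered 96 in both limma fits and 105 with upper-quartile factors, lower ones 208, 210 and 261, and higher adhesion genes 42 in both limma fits. The limma fits moved the median by -0.0737 and -0.0757 on the log2 scale, and the cause of the changed counts was not tested. Scaling by the upper quartile called 2798 genes higher and 5059 lower, a median shift of -0.0869 on the log2 scale, and no gene called in both fits changed direction. Leaving out 1 library gave 3755 to 3888 higher, 3397 to 3465 lower, 337 to 351 at least 2-fold higher and 668 to 760 at least 2-fold lower genes, and 7229 to 7352 for the difference from the inhibition response. Same-numbered libraries of the 2 groups correlated at 0.0384, 0.0436 and 0.0193 in their deviations, each OE_CM library best with its own number, which is a hint from the data and not the design. The samples share only a number. With the replicate number as a block, 4133 genes were higher, 3761 lower, 350 at least 2-fold higher, 715 at least 2-fold lower and 7678 called for the difference. Genes under the floor of 3 counts, at most 0.0939 CPM, could not be compared at this depth.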
